A study of Homo sapiens with 12 samples.

Results

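The histone mark H3K18ac, an acetyl group on lysine 18 of the histone H3 tail, was mapped by chromatin immunoprecipitation and sequencing (ChIP-seq) in H1 human embryonic stem cells and in IMR90 fibroblasts, and the region lists of both lines were compared over the 22 autosomes. These hold 147540 of the 169273 regions that the 6 lists of the series contain: 64465 regions in H1 and 83075 in IMR90. A further 1481 H1 regions and 1396 IMR90 regions on the sex chromosomes were left out. Each list comes from 1 library, so every difference between the lines below is a description that no replicate error can be set beside. Neither line received an siRNA for H3K18ac. H1, a pluripotent line derived from an embryo, was grown in mTESR1 medium and used between passages 35 and 45. IMR90, a line of primary lung fibroblasts with a finite life span in culture, was grown in DMEM with serum and antibiotics and used between passages 7 and 12. The same custom antibody, called 814 in the labels, was used on chromatin from 5000000 cells of each line. Line, medium and passage differ together and cannot be told apart, and each line stands for 1 donor. The other lists hold regions of BrdU incorporation, which marks DNA made during labelling, and 3 of them are used below. They come from H1 cells collected 72 h after a non-targeting siRNA (H1 Control, in medium that also held HA 1077), and from IMR90 and Saos-2 osteosarcoma cells without siRNA.

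H3K18ac is laid down mainly by the paralogous acetyltransferases p300 and CBP. It is found at nucleosomes beside active promoters and at active enhancers, where acetylated histone tails go together with open chromatin and are bound by bromodomain proteins. Promoters of widely expressed genes tend to carry such acetylation in most cell types, while enhancers differ strongly between a pluripotent cell and a fibroblast. Without an hg19 gene annotation, regions are named by hg19 position (chromosome, first and last base), and the marker genes of either line were not checked.

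The mark formed small, scattered regions in H1 and wider, closely packed regions in IMR90. The lists are built on windows of 100 bp, and the median region was 1 window in H1 and 300 bp in IMR90. A single window made up 34611 H1 regions (53.7%, Wilson 95% interval 53.3 to 54.1) and 24138 IMR90 regions (29.1%, 28.7 to 29.4). In the 50% of regions of highest score these shares were 7.92% and 0.0289%. With the IMR90 list cut by score to the number of H1 regions, and H1 left whole, the IMR90 share was 8.74%. The score rises with width in both lists, so a cut by score takes out single windows first and the fall is built into it. Regions of 500 bp or more numbered 8092 in H1 (12.6%, 12.3 to 12.8) and 27877 in IMR90 (33.6%, 33.2 to 33.9). These intervals cover the counting error of regions only, and neighbouring regions are not independent. By covered length the lists were further apart than by number. IMR90 held 1.29 times as many autosomal regions as H1 but covered 2.53 times the length, 39.0 Mb against 15.4 Mb. The order by number depended on how the mark is split into regions. With regions of a list merged across gaps of up to 1 kb, H1 had 51676 and IMR90 41805. Regions of 1000 bp or more carried 41.5% of the covered length in IMR90 and 14.2% in H1. The class of 3000 bp or more held 633 regions over 2.60 Mb in IMR90 and 12 regions over 0.0400 Mb in H1.

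**Figure D1:**
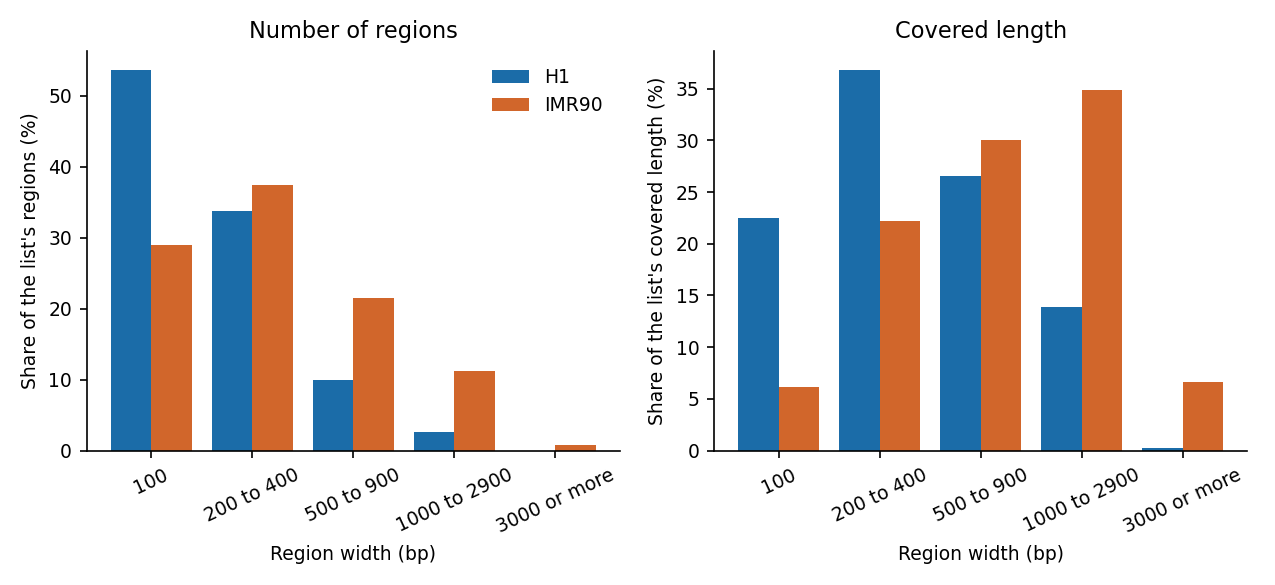
Autosomal H3K18ac regions of H1 (blue) and IMR90 (orange) by width in bp, as a share of each list's regions (left) and of each list's covered length (right), 1 library a line. Single windows lead the H1 list by number at 53.7%, and regions of 1000 to 2900 bp lead the IMR90 list by covered length at 34.8%.

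The widest regions of the lines lay at different places. In IMR90 they were blocks of 26800 bp at chr17:46644201-46671000, 14700 bp at chr17:48262801-48277500, 14200 bp at chr2:66660801-66675000, 10300 bp at chr6:52401201-52411500 and 9600 bp at chr15:33380801-33390400. They ranked 1, 2, 4, 17 and 45 by the authors' score in their list. H1 had a region inside only 1 of these 5 blocks, a single window of 100 bp in the block on chromosome 2. The nearest H1 region lay 1200 bp from the second block and 1400 bp from that on chromosome 6, and 92900 bp from the first. In H1 the widest regions reached 3300 to 4200 bp. Of the 5 widest, 3 overlapped IMR90, and those at chr7:104652401-104656000 and chr7:5465401-5468900 were covered by IMR90 over 3300 and 3200 bp. The widest of all, 4200 bp at chr2:233283201-233287400, had its nearest IMR90 region 128100 bp away. The region of 3400 bp at chr1:203257801-203261200 had none within 13600 bp. The fifth, 3300 bp at chr9:71734701-71738000, was covered by IMR90 over 1200 bp. Thus 3 of the 5 broadest H1 regions held 1200 bp or more of the IMR90 mark, whereas the 5 broadest IMR90 blocks held at most 1 window of the H1 mark.

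Wide H1 regions met the IMR90 list more often than wide IMR90 regions met the H1 list. In all, 12295 H1 regions (19.1%) overlapped an IMR90 region by at least 1 bp, and 12084 IMR90 regions (14.5%) overlapped an H1 region. In H1 the share rose with width from 7.91% of single windows (7.63 to 8.20) to 22.9% at 200 to 400 bp, 52.6% at 500 to 900 bp and 71.3% (69.1 to 73.4) at 1000 to 2900 bp. Of the 12 H1 regions of 3000 bp or more, 10 overlapped. In IMR90 the share rose from 8.36% of single windows (8.02 to 8.72) to 23.6% (22.7 to 24.5) at 1000 to 2900 bp and 37.3% (33.6 to 41.1) at 3000 bp or more. Wider regions have more room to meet the other list, so overlap was also counted at the central window alone. In H1 the share at the central window still rose, to 18.2% at 200 to 400 bp, 35.1% at 500 to 900 bp and 42.5% (40.2 to 44.9) at 1000 to 2900 bp. In IMR90 it did not: it was 11.0% at 200 to 400 bp, 11.2% at 500 to 900 bp, 8.43% (7.88 to 9.01) at 1000 to 2900 bp and 7.74% (5.90 to 10.1) at 3000 bp or more. Among regions of 1000 bp or more, 42.1% in H1 and 6.52% in IMR90 had at least 50% of their length in the other list. The IMR90 list covers 1.48% of the autosomal sequence compared here and the H1 list 0.583%, which is how often a window taken anywhere would meet each list.

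**Figure D2:**
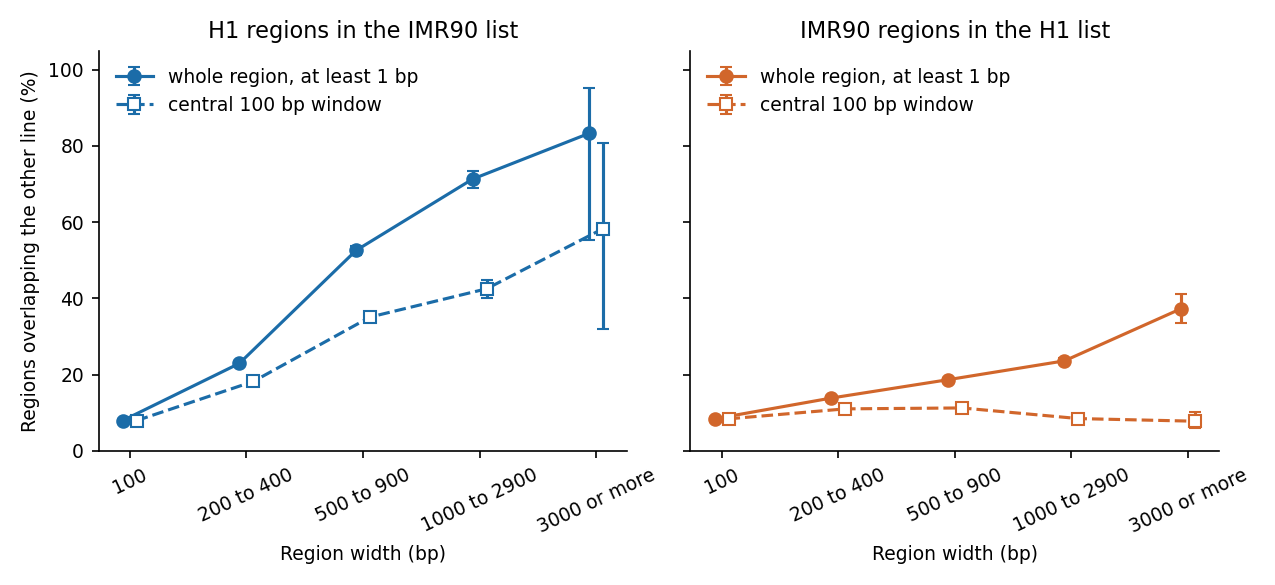
Share of H1 regions that overlap an IMR90 region (left) and of IMR90 regions that overlap an H1 region (right), in percent, by width in bp. Filled circles count the whole region, open squares its central window, and bars are Wilson 95% intervals of counting error. At the central window the H1 share climbs from 7.91% to 42.5% between single windows and 1000 to 2900 bp, and the IMR90 share stays between 7.74% and 11.2%.

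The position of the other line's mark along these regions was also examined. Within H1 regions of 1000 bp or more, IMR90 covered 33.0% of the outermost windows and 41.3% of those 300 to 500 bp from the nearer edge. It covered 45.4% of windows at least 500 bp from both edges, which only regions wider than 1000 bp have. Outside the H1 regions of 1000 bp or more it covered 17.4% of the windows within 200 bp, 5.74% at 1000 to 2000 bp and 2.19% at 5000 to 10000 bp. At 50000 to 55000 bp it covered 1.74%. The IMR90 mark was thus most frequent in the middle of wide H1 regions and fell off over a few kb. Within IMR90 regions of 1000 bp or more, H1 covered 6.41% of the outermost windows, 8.48% at 200 to 300 bp from the nearer edge and 7.26% at 500 bp or more. It covered 2.87% of windows within 200 bp outside, and 0.646% and 0.602% at the 2 farther distances.

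Among single windows, where width plays no part, regions of higher score were shared more often in both lines. When the single windows of each list were ranked by score and cut into 5 equal groups, 5.68% (5.16 to 6.25) of the lowest and 13.1% (12.4 to 14.0) of the highest overlapped the other line in H1. In IMR90 these shares were 2.73% (2.31 to 3.23) and 19.3% (18.2 to 20.5). Single windows of equal score were put in order of position, so a border between groups can fall among regions of the same score. The score rises with width in both lists, with a Spearman correlation across regions of 0.90 in H1 and 0.96 in IMR90, so it was used only as rank.

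Most regions without an overlap lay more than 10 kb from the other line's mark. The median distance to the nearest region of the other line was 23200 bp for the 52170 H1 regions without an overlap and 17700 bp for the 70991 IMR90 regions. Within 10 kb lay 33.7% of the former and 38.0% of the latter, and more than 100 kb away lay 20.96% and 11.7%. Of the highest-scoring H1 regions without an overlap, that at chr21:9825401-9826800 (rank 2) was 5928300 bp from the nearest IMR90 region. Those at chr17:41399801-41401200 (rank 6) and at chr7:73156301-73158800 (rank 9) were 6600 and 3300 bp away. The lists were not screened here for poorly mappable or artefact-prone sequence. The distance on chromosome 21 therefore does not show that the mark was absent from IMR90 there. In IMR90 the regions next in score to the 2 leading blocks of chromosome 17 were 9200 bp at chr17:59477601-59486800 (rank 6), 7500 bp at chr2:208115801-208123300 (rank 9) and 6500 bp at chr11:12106301-12112800 (rank 11). They had H1 regions 4900, 13100 and 1200 bp away. In each case that H1 region measured 300 bp or less.

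IMR90 regions came in dense groups and H1 regions in loose ones. The median gap from a region to the next was 1100 bp in IMR90 and 10500 bp in H1, with quartiles of 500 and 16200 bp and of 1800 and 38500 bp. When successive regions of a list were joined across gaps of up to 10 kb, 89.97% of IMR90 regions (89.8 to 90.2) and 69.2% of H1 regions (68.8 to 69.5) had company. Merging across gaps of up to 1 kb took IMR90 from 83075 to 41805 regions and H1 from 64465 to 51676. Clusters and tiles were not recomputed with merged regions, so the numbers of regions in them depend on how the mark is split. Isolated regions numbered 8334 in IMR90 and 19866 in H1. Clusters of 10 or more regions held 24.1% of the IMR90 regions, in 1357 clusters, and 10.1% of the H1 regions, in 463 clusters. Within such clusters the mark covered 31.1% of the span in IMR90 and 9.32% in H1, and the median span was 26.7 and 35.7 kb.

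The clusters of most regions lay at different places in the lines, and the H1 ones were the longer and thinner. In H1 the leading clusters held 63 regions over 158.9 kb at chr21:46703501-46862400, 59 regions over 189.2 kb at chr21:44712201-44901400 and 54 regions over 168.9 kb at chr16:85454001-85622900. The mark covered 9.19%, 6.77% and 7.28% of their spans, and IMR90 had 27, 10 and 9 regions within them. The next 2, of 38 regions each, lay at chr16:4356401-4476300 and at chr9:138977901-139084300, with 25 and 4 IMR90 regions. In IMR90 the leading clusters held 54 regions over 124.0 kb at chr17:75350201-75474200 and 54 over 91.2 kb at chr17:62653601-62744800. The mark covered 27.7% and 40.2% of these spans, and H1 had 28 regions in the first and 3 in the second. They were followed by 51 regions at chr5:172280401-172386900, 49 at chr1:95067501-95149700 and 46 at chr12:65991301-66070000, with 13, 6 and 0 H1 regions.

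Clusters were met by the other line more often the more regions they held. Counting single regions as clusters of 1, the other line had a region within 26.4% of the 32807 H1 clusters and 34.5% of the 25071 IMR90 clusters. For isolated regions the share was 13.1% (12.7 to 13.6) in H1 and 26.7% (25.8 to 27.7) in IMR90. It rose to 74.7% (70.3 to 78.7) for H1 clusters of 10 to 19 regions and 82.7% (70.3 to 90.6) for the 52 H1 clusters of 20 or more. In IMR90 these shares were 51.2% (48.3 to 54.1) and 69.9% (63.1 to 76.0). Span rises along with the number of regions, from a median of 1.90 kb at 2 regions to 69.8 kb at 20 or more in H1 and from 1.30 to 53.2 kb in IMR90, and its part in these shares was not tested. Some large clusters had no region of the other line at all. In H1 they were led by 27 regions at chr13:113634101-113721300, 24 at chr22:42755101-42837000 and 24 at chr4:1754001-1806700, where the mark covered 6.88%, 5.37% and 9.11% of the span. In IMR90 they were led by the cluster on chromosome 12 named above, 45 regions at chr1:172863901-172947400 and 37 at chr2:37990701-38071200, at 55.4%, 58.2% and 41.4%.

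**Figure D3:**
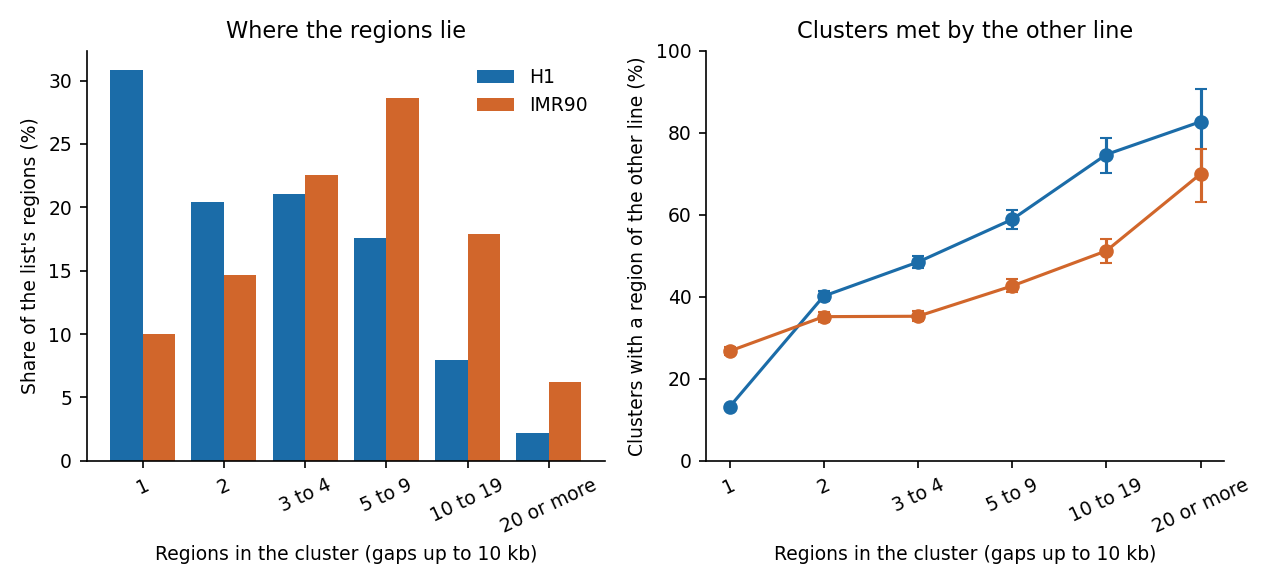
Share of each list's regions (%, left) and share of clusters that hold a region of the other line (%, right), by the number of regions joined across gaps of up to 10 kb, H1 in blue and IMR90 in orange, with Wilson 95% intervals on the right. Isolated regions make up 30.8% of the H1 list and 10.0% of the IMR90 list, and in both lines the share met by the other line is highest at 20 or more regions.

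The density of the mark varied widely between autosomes in H1 and little in IMR90. Density was taken over the 500 kb bins that held a region of any list, 2641 Mb in all, so that stretches without any region do not count. H1 ranged from 13.0 regions per Mb on chromosome 4 to 76.4 on chromosome 22, a spread of 5.88 times. IMR90 ranged from 24.2 on chromosome 4 to 40.7 on chromosome 17, a spread of 1.68 times. In H1 the densest autosomes after chromosome 22 were 19, with 61.1 regions per Mb, and 17, with 40.1, and the sparsest after chromosome 4 were 18, with 16.98, and 5, with 17.4. In IMR90 chromosomes 17, 15 (40.1) and 22 (37.3) were densest and chromosomes 4, 18 (26.7) and 7 (27.6) sparsest. Chromosomes 19 and 22 are rich in genes and in G and C bases, and chromosomes 4 and 18 are poor in both. Neither was measured here.

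The ratio of IMR90 to H1 density had a median of 1.28 over the 22 autosomes. It was not recomputed with regions merged across gaps of up to 1 kb, where H1 held more regions in all. It was highest on chromosomes 4 (1.86, interval 1.77 to 1.96), 5 (1.79, 1.71 to 1.87) and 2 (1.73, 1.67 to 1.80). It was lowest on chromosomes 22 (0.488, 0.457 to 0.522), 19 (0.531, 0.501 to 0.562) and 16 (0.771, 0.731 to 0.814). It was also below 1 on chromosome 20, at 0.988, where the interval held 1, and on the other 18 autosomes it was above 1. On 3 of these the interval also held 1, chromosomes 9 (1.03, 0.983 to 1.07), 17 (1.02, 0.967 to 1.07) and 21 (1.01, 0.936 to 1.10). Regions of 500 bp or more showed the same contrast: their density varied 6.78 times between autosomes in H1, from 1.56 per Mb on chromosome 4 to 10.6 on chromosome 19, and 1.82 times in IMR90, from 7.52 to 13.7. Single windows varied 5.62 and 1.65 times. By covered length, H1 was ahead on 2 autosomes, 19 and 22, with ratios of 0.843 and 0.939, and the median ratio was 2.69. Sharing varied between autosomes as well. The share of IMR90 regions that overlapped H1 ranged from 9.51% on chromosome 13 to 37.8% on chromosome 19, and the share of H1 regions that overlapped IMR90 from 13.6% on chromosome 22 to 24.7% on chromosome 17. When the IMR90 list was cut to its highest-scoring regions at the number of H1 regions, chromosomes 22, 19 and 4 had ratios of 0.390, 0.426 and 1.45. The median ratio in that setting was 1.00, which the equal totals bring about, so it is no separate result.

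**Figure D4:**
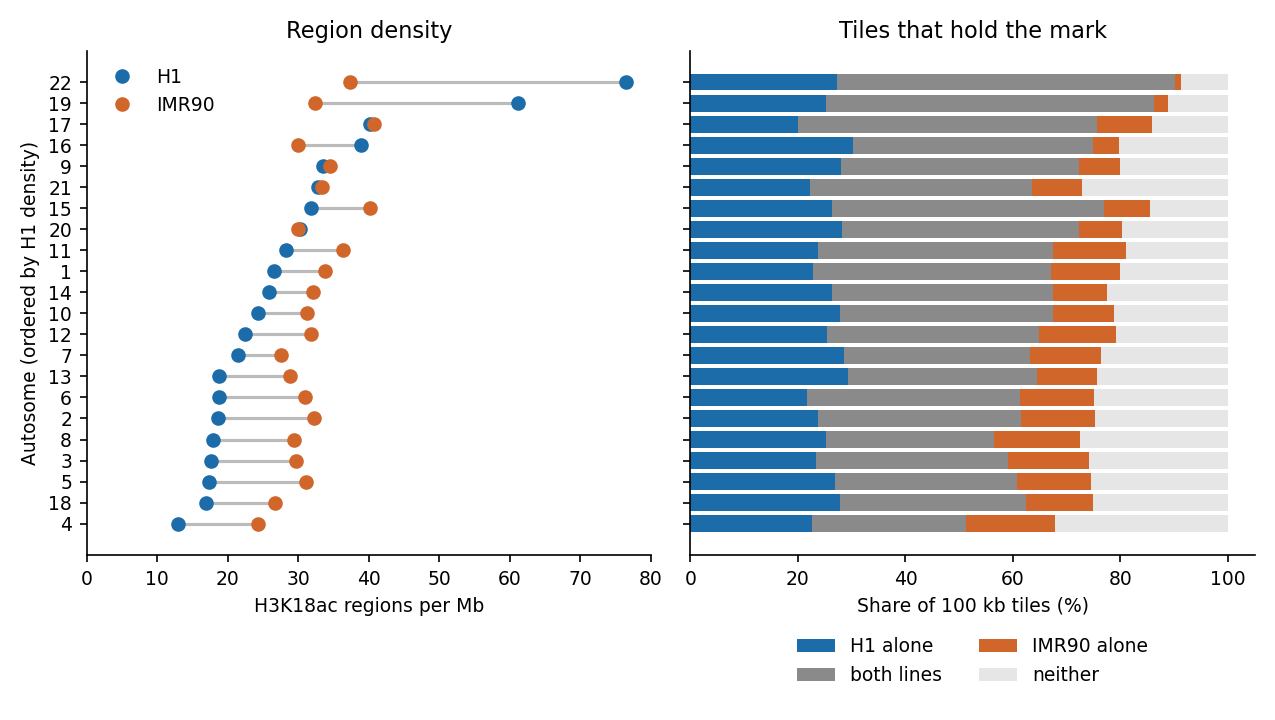
Left, H3K18ac regions per Mb on each autosome in H1 (blue) and IMR90 (orange), with the autosomes in order of H1 density. Right, share of 100 kb tiles of each autosome (%) with regions of H1 alone (blue), both lines (grey), IMR90 alone (orange) or neither (light grey). H1 density runs from 13.0 to 76.4 and IMR90 density from 24.2 to 40.7, and the share of tiles with IMR90 alone falls to 1.16% on chromosome 22.

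The autosomes were then cut into 26410 tiles of 100 kb, and each region was given to the tile of its midpoint. The mark was present in 64.9% of tiles in H1 and in 52.0% in IMR90. Tiles with both lines numbered 10479 (39.7%), tiles with H1 alone 6650 (25.2%), tiles with IMR90 alone 3250 (12.3%) and tiles with neither 6031 (22.8%). Although IMR90 had more regions, H1 was thus present in more tiles. H1 regions were sparse where they stood alone: 46.9% of H1-alone tiles held 1 region, against 18% of IMR90-alone tiles, and the median was 2 against 4 regions. H1 regions in H1-alone tiles were also narrower than those in tiles with both lines, with a mean of 181 bp against 261 bp and 64.1% against 49.7% single windows. IMR90 regions hardly differed in the same way, with means of 456 and 473 bp and 30.5% and 28.7% single windows. The order of the counts turned when small regions were left out. Without single windows, H1-alone tiles numbered 4192 and IMR90-alone tiles 4916. Tiles with 5 or more regions of a line and none of the other numbered 1017 for H1 (3.85% of tiles) and 1389 for IMR90 (5.26%), and 298 and 1876 without single windows. This order turned with lists of equal number, at 1169 and 1060, and in tiles of 200 kb, at 664 and 572. They made up 22.96% of the tiles with 5 or more H1 regions and 21.5% of those with 5 or more IMR90 regions. A tile with both lines did not need to share a region: in 4320 of the 10479 (41.2%) no region overlapped the other line.

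IMR90-alone tiles were nearly missing from chromosomes 22 and 19, the autosomes on which H1 was densest, while H1-alone tiles varied less between autosomes. The share of tiles with H1 alone lay between 20.0% on chromosome 17 and 30.3% on chromosome 16. The share with IMR90 alone ranged from 1.16% on chromosome 22, or 4 tiles, and 2.68% on chromosome 19, or 15 tiles, to 16.6% on chromosome 4, or 303 tiles. Where H1 fills most tiles, few are left for IMR90 alone. Tiles with neither line numbered 30 on chromosome 22, 62 on chromosome 19 and 588 on chromosome 4. Tiles with H1 alone outnumbered those with IMR90 alone on all 22 autosomes in the full lists.

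The H1-alone tiles of most regions held 24 regions at chr9:140000001-140100000, 24 at chr22:42700001-42800000, 23 at chr1:17000001-17100000, 22 at chr19:19200001-19300000 and 22 at chr4:8500001-8600000. The mark covered between 4.20 and 6.90 kb of each. The tile on chromosome 9 lay between tiles with 7 IMR90 regions on either side, the nearest 0.4 kb from its border, so its class depended on where the border fell. Around those on chromosomes 22, 1, 19 and 4 the nearest IMR90 region was 33.7, 60.4, 3.10 and 24.6 kb from the border. The IMR90-alone tiles of most regions held 45 regions at chr12:66000001-66100000, 38 at chr2:197100001-197200000, 36 at chr2:38000001-38100000, 36 at chr8:119800001-119900000 and 35 at chr2:151400001-151500000. Here the mark covered between 15.5 and 40.0 kb, and the nearest H1 region lay 8.60 to 63.9 kb outside.

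Successive tiles without the other line formed runs. The H1 run of most regions covered 24 tiles at chr22:47800001-50200000, of which 22 held the mark with 221 regions in all, and IMR90 had none in these 2.40 Mb. The next H1 runs held 169 regions in 13 tiles at chr8:142400001-143700000 and 107 in 12 tiles at chr7:157200001-158400000, each tile with the mark. In IMR90 the leading run was at chr19:43100001-43900000, with 118 regions in 6 of its 8 tiles. These are 6 of the 15 IMR90-alone tiles of that chromosome, where 61.1% of tiles held both lines and 25.2% H1 alone. The next held 93 regions in 6 tiles at chr6:139800001-140400000 and 91 in 9 of 10 tiles at chr11:28200001-29200000. Runs of 20 or more regions numbered 153 in H1 and 233 in IMR90.

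BrdU regions took no part in classing the tiles. Whichever line the BrdU list came from, they were somewhat denser in tiles with H1 alone than over all tiles, with the ends of the long arms included. In tiles with IMR90 alone they were rare. The H1 Control list had 2.36 BrdU regions per Mb in H1-alone tiles (1572 regions, exact Poisson 95% interval 2.25 to 2.48) and 0.514 in IMR90-alone tiles (167 regions, 0.439 to 0.598). The IMR90 list itself had 2.62 per Mb in H1-alone tiles (2.50 to 2.74) and 0.557 in IMR90-alone tiles (0.479 to 0.644). Saos-2 had 3.27 (3.14 to 3.41) and 0.520 (0.445 to 0.605). In tiles with both lines the values were 2.81, 3.44 and 3.06 for H1 Control, IMR90 and Saos-2, and in tiles with neither 0.453, 0.303 and 0.841. Over all tiles they were 1.88, 2.16 and 2.29. In H1-alone tiles outside the last 5 Mb of each autosome's bins they were 2.01, 2.09 and 2.46. The IMR90 value there was below that over all tiles. The density of all tiles outside the last 5 Mb is not given here. The 500 kb bins were those with a region of any of the 6 lists, BrdU included, which bears on the tiles with neither line. The ratio of H1-alone to IMR90-alone tiles was 4.60 (3.92 to 5.40) for H1 Control, 4.70 (4.03 to 5.47) for IMR90 and 6.29 (5.38 to 7.36) for Saos-2. BrdU density was higher in H1-alone tiles on 22 of 22 autosomes for H1 Control and Saos-2 and on 21 of 22 for IMR90. Without chromosomes 16, 17, 19 and 22 the ratios were 4.32, 4.63 and 6.64. Each list is 1 library, the intervals cover counting error only, and the H1 Control cells differ from the H1 cells of the H3K18ac list in siRNA and additive.

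**Figure D5:**
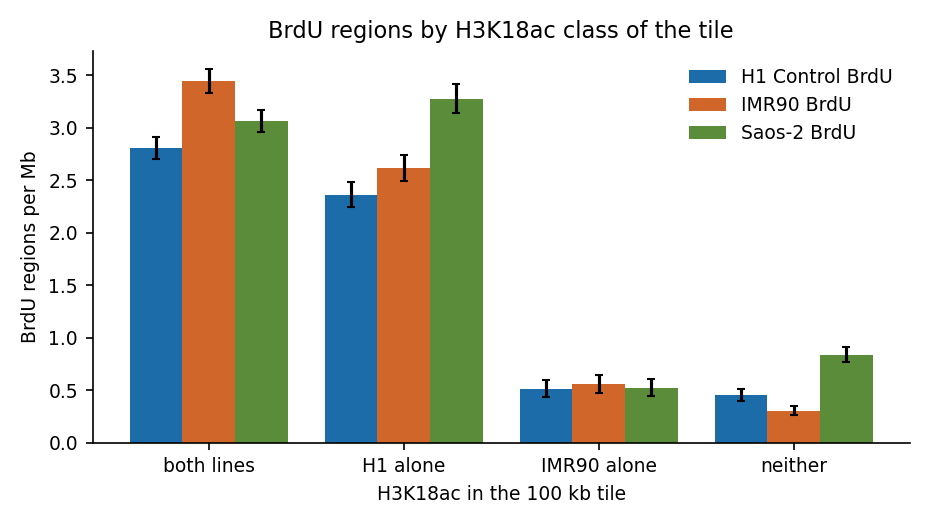
BrdU regions per Mb of the H1 Control (blue), IMR90 (orange) and Saos-2 (green) lists in 100 kb tiles classed by H3K18ac, with exact Poisson 95% intervals of counting error. All 3 lists stand between 2.36 and 3.44 in tiles with both lines or H1 alone and between 0.303 and 0.841 in the other tiles.

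At the regions themselves the lines went opposite ways. The shares below compare regions with and without an overlap within a line, and enrichment over the rest of the genome was not tested. H1 regions that overlapped IMR90 met an H1 Control BrdU region in 38 of 12295 cases (0.309%, 0.225 to 0.424), and those without an overlap in 428 of 52170 (0.820%, 0.747 to 0.902). IMR90 regions that overlapped H1 met an IMR90 BrdU region in 62 of 12084 cases (0.513%, 0.4005 to 0.657), and those without an overlap in 78 of 70991 (0.110%, 0.0881 to 0.137). The BrdU lists of the other lines gave the same order. H1 regions with and without an IMR90 overlap met Saos-2 BrdU in 0.464% and 1.47%, and IMR90 regions with and without an H1 overlap in 0.480% and 0.132%. In both lines the regions that overlapped were the wider ones, so the shares were also taken within width classes, a comparison added after the data were seen. At 500 bp or more, 0.503% of H1 regions with an overlap and 2.44% of those without met H1 Control BrdU, and 0.728% and 0.226% of IMR90 regions met IMR90 BrdU. Single windows and regions of 200 to 400 bp had the same order in each line, but IMR90 single windows met BrdU in only 3 and 7 cases and their intervals overlapped.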

How the data were processed

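Each of the 6 deposited files lists the regions of 1 library with a position and a score. Reads were aligned with Bowtie 0.12.7 to hg19, per the submitters' processing notes. The region caller, its threshold, the use of the inputs and the handling of duplicates are not stated in the labels or files used here. The score deposited by the authors is a whole number of unstated meaning and served only as rank within a list. The depth of each library is unknown, so absence from a list does not show that the mark was absent, and a deeper or cleaner library may give more and wider regions.

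Every region starts and ends on a grid of 100 bp windows. Overlap meant at least 1 bp, clusters joined gaps of up to 10 kb, and density and tiles used the 5282 autosomal bins of 500 kb that hold a region in any of the 6 lists. Shares carry Wilson and BrdU densities exact Poisson 95% intervals. Ratios of counts carry intervals from the binomial share of the 2 counts. With 1 library a group there is no test and no p-value. Python 3.11.15, numpy 2.4.6, pandas 2.3.3, scipy 1.17.1 and matplotlib 3.10.9 were used, and the overlap, cluster and tile code was tested on simulated lists.

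Named regions, clusters, tiles and runs were taken by rank: the widest and the highest-scoring without overlap, and those with most regions. The rules and lists were chosen with earlier results of these data known. The comparison at the central window, the profile from region edges, the score groups of single windows, the density by width, the BrdU shares at regions, the tiles near chromosome ends and the set without chromosomes 16, 17, 19 and 22 were added after the data had been seen. No genome or annotation of hg19 was used, so gene lists and sequences are not analysed here.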

Additional observations from a re-analysis of the deposited data

How the results depend on the processing

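No paired analysis was possible because each group has 1 library. Of 74 values recomputed under alternatives, 35 stayed within their interval or, for counts and single-chromosome ratios, within 1.5 times. None of the autosome and BrdU ratios changed its side of 1 in the settings run for them. With lists of equal number the median autosome ratio is set near 1 by the equal totals. The cause of a change was not tested except where the setting itself brings it. With the 50% of regions of highest score in each list, 92.1% of H1 and 99.97% of IMR90 regions were wider than 1 window (46.3% and 70.9% in the full lists), 60.4% and 82.9% had a neighbour within 10 kb, 44.0% and 30.4% of clusters met the other line (46.7% and 38.4% in full), the median autosome ratio was 1.34, 447 tiles held 5 or more H1 regions alone, and the BrdU ratios were 3.58, 3.75 and 4.58. With lists of equal number, 91.3% of IMR90 regions were wider than 1 window and 87.8% had a neighbour, and 43.1% of H1 clusters met IMR90. The median ratio was 1.00, as the equal totals bring about. Merging within 1 kb gave 49.2% and 78.0% wider regions, and it turned the order by number, to 51676 H1 and 41805 IMR90 regions. The clusters, autosome ratios, tiles and BrdU ratios were not recomputed with merged regions. Gaps of 5 kb gave 57.9% and 86.2% of regions with a neighbour and 43.4% and 32.6% of clusters met, and gaps of 20 kb gave 79.9% and 93.6%, and 52.9% and 47.0%. Covered length gave a median ratio of 2.69. Tiles of 50 kb gave 12200 H1-alone and 7352 IMR90-alone tiles and 2321 with 5 or more IMR90 regions alone. Tiles of 200 kb gave 3131 and 1069, with 664 and 572 of 5 or more. Without single windows there were 4192 and 4916, and 298 H1-alone tiles of 5 or more regions. H1-alone tiles of 1 or more regions outnumbered those of IMR90 under every alternative run but this last. Those of 5 or more were fewer than in IMR90 except with lists of equal number (1169 and 1060) and tiles of 200 kb.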

Other observations

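Tiles at the distal end of the long arms were taken apart as the last 5 Mb of each autosome's bins, 1095 tiles in all. There H1 alone held the mark in 416 tiles (38.0%) and IMR90 alone in 29 (2.65%), against 24.6% and 12.7% in the remaining tiles. Both lines held it in 47.3% of the distal tiles and 39.3% of the others. Outside the last 5 Mb the BrdU ratio of H1-alone to IMR90-alone tiles was 4.01 (3.40 to 4.73) for H1 Control, 3.81 (3.26 to 4.46) for IMR90 and 4.92 (4.18 to 5.78) for Saos-2.

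Each line concentrated its regions to a like degree. The 10% of tiles with most regions held 46.4% of the H1 list and 49.3% of the IMR90 list. Whether these were the same tiles was not counted. Tiles with 5 or more regions numbered 4429 in H1 and 6466 in IMR90, and 1927 tiles held 5 or more of each. Across the 22 autosomes the densities of the lines had a Spearman correlation of 0.73. Across the 26410 tiles the numbers of H1 and IMR90 regions had a Spearman correlation of 0.32, given as a description, since tiles share chromosomes, base composition and mappability. Among the 10479 tiles with both lines it was 0.13.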
